A study of Mus musculus with 6 samples.

Results

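Glycogen metabolism was followed in mouse liver through 9 genes for the synthesis, branching, breakdown and phosphatase control of glycogen. They were found by symbol in a deposited expression table, all 9 among 22481 symbols. The livers came from male C57BL/6J mice aged 10 weeks, an inbred laboratory strain with no engineered allele named in the labels. In the fed group the animals had free access to food, and in the fasted group food was withheld for 16 h. Each group held 3 libraries of total RNA depleted of ribosomal RNA. The labels do not state whether each library is a separate mouse, so p-values measure only the spread between these libraries, which may be technical.

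The liver stores glucose as glycogen after a meal and releases it between meals. Glucose is activated to UDP-glucose, added to the growing chain by glycogen synthase, and the chain is branched by the branching enzyme. Phosphorylase cuts glucose 1-phosphate from the chain ends. Synthase and phosphorylase are switched in opposite directions by phosphorylation, and targeting subunits bring protein phosphatase 1 to the glycogen particle, where it activates synthase and inactivates phosphorylase. Much of this control therefore acts on the proteins, which were not measured here.

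None of the 9 transcripts was shown to differ between fasted and fed liver. The 8 members with enough counts to test had overlapping groups in CPM (counts divided by the scaled library total and multiplied by a constant) and in FPKM (fragments per kilobase of transcript, scaled to depth), while the groups did not overlap in 29.0% and 25.8% of the 11633 tested genes. In edgeR's quasi-likelihood test 0 of 8 passed an adjusted p of 0.05, against 2.52% of tested genes (1.41% higher and 1.11% lower in fasted livers), and 0 of 8 had an unadjusted p under 0.05, against 21.8% of tested genes. DESeq2, which called 8.40% of the genes it gave an adjusted p, called 0 of 8 too. So did limma on FPKM, which with a pseudocount of 1 called 186 of the 11633 genes. The members' median log2 fold change, fasted over fed, was 0.00, beside -0.02 over all tested genes. The fed libraries spread widely for all of these members but Stbd1, and 14 of their 28 pairwise ratios were apart between the groups, against 26.3% of the ratios of all pairs of tested genes.

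Gys2, the liver isoform of glycogen synthase, is on chromosome 6 from 142422613 to 142473109 of the mouse build GRCm38 in the GENCODE M21 annotation. It was at 44.2, 24.2 and 13.2 FPKM in fed libraries 1, 2 and 3 and at 38.7, 35.4 and 49.2 FPKM in fasted libraries 1, 2 and 3. Fed library 1 lay inside the fasted range and the other fed libraries below it. Its log2 fold change on counts was 0.77 (95% interval -0.08 to 1.62, edgeR adjusted p = 0.269). Without fed library 1 the estimate was 1.24 with an edgeR adjusted p of 0.0449, in a fit that called 4.21% of the genes it tested. Gys2 made up 90.6% to 99.1% of the summed FPKM of Gys2 and Gys1, the isoform known from muscle.

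Ugp2 encodes UDP-glucose pyrophosphorylase, which makes the glucose donor (chromosome 11, 21321138 to 21371201). Its levels were 142, 61.0 and 37.5 FPKM in fed libraries 1, 2 and 3 and 58.2, 70.4 and 89.4 FPKM in fasted libraries 1, 2 and 3. The fed values lay on both sides of the fasted range, and the log2 fold change was -0.03 (95% interval -1.03 to 0.98, edgeR adjusted p = 0.979). Its direction depends on the setting of the fit: it was 0.60 without fed library 1, 0.16 with library numbers as blocks and 0.05 on FPKM.

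Gbe1 encodes the branching enzyme (chromosome 16, 70313949 to 70569716). It was at 31.5, 24.1 and 12.6 FPKM in fed libraries 1, 2 and 3 and at 13.2, 15.4 and 16.4 FPKM in fasted libraries 1, 2 and 3. Only fed library 3 was below the fasted libraries. The log2 fold change was -0.46 (95% interval -1.09 to 0.16, edgeR adjusted p = 0.358), and without fed library 3 it was -0.71 with an edgeR adjusted p of 0.04, in a fit that called 6.34% of the genes it tested.

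Pygl, the liver isoform of glycogen phosphorylase, is on chromosome 12 from 70190811 to 70231488. It had the widest fed range of the 8 tested members, 173, 92.2 and 29.7 FPKM in fed libraries 1, 2 and 3, a 5.81-fold span. Fasted libraries 1, 2 and 3 held 47.7, 53.6 and 60.1 FPKM, a 1.26-fold span. The log2 fold change was -0.77 (95% interval -1.92 to 0.38, edgeR adjusted p = 0.408). Leaving out fed library 3 gave -1.17 with an edgeR adjusted p of 0.0371, in the fit that called 6.34% of the genes it tested. Leaving out fed library 1 gave -0.17. Pygl held 92.3% to 99.4% of the FPKM summed over it and the brain and muscle isoforms Pygb and Pygm.

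Phka2, the liver-type alpha subunit of phosphorylase kinase, which activates phosphorylase, lies on chromosome X from 160502166 to 160598878. It had 4.81, 3.57 and 2.25 FPKM in fed libraries 1, 2 and 3 and 3.79, 4.07 and 4.70 FPKM in fasted libraries 1, 2 and 3. As in the other tested members, fed library 3 had the lowest FPKM of all 6 libraries. The log2 fold change was 0.37 (95% interval -0.32 to 1.06, edgeR adjusted p = 0.508). Phka2 took 67.9% to 83.8% of the FPKM of Phka2 and its paralog Phka1, a lower share than those of Gys2 and Pygl within their families.

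**Figure D1:**
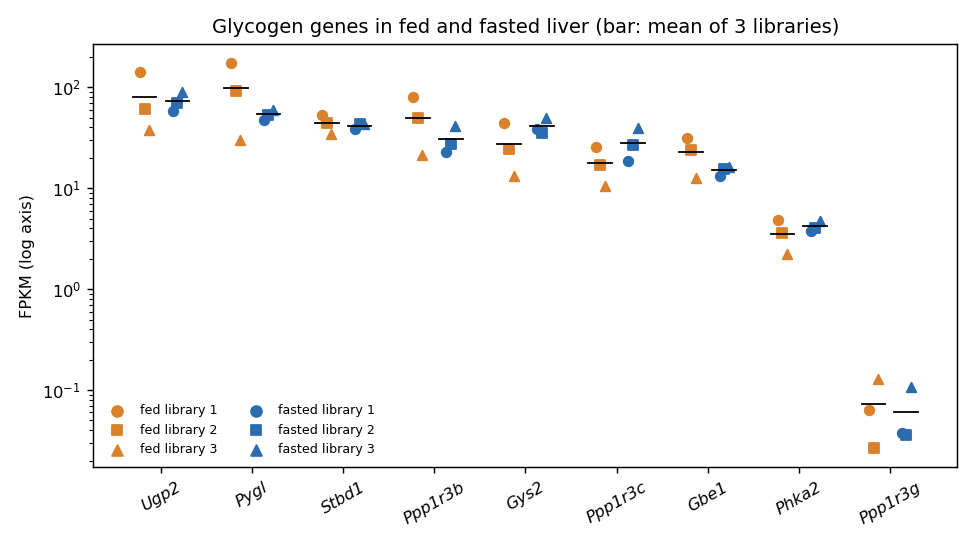
FPKM of the 9 genes (log axis) in each of 3 fed (orange) and 3 fasted (blue) liver libraries, with the marker shape giving the library number and a black bar the group mean. For Pygl the fed libraries run from 29.7 to 173 FPKM and enclose the fasted libraries, at 47.7 to 60.1.

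The phosphatase-targeting subunits Ppp1r3b and Ppp1r3c were both abundant and had estimates of opposite sign. Ppp1r3b, known as GL and first described in liver, is on chromosome 8 from 35375739 to 35388139. It stood at 79.2, 49.4 and 21.3 FPKM in fed libraries 1, 2 and 3 and at 22.6, 27.6 and 41.2 FPKM in fasted libraries 1, 2 and 3. The deposited locus of Ppp1r3b spans other genes, so its level is uncertain. Fed libraries 1 and 2 were above all fasted libraries and fed library 3 below them. The log2 fold change was -0.60 (95% interval -1.56 to 0.36, edgeR adjusted p = 0.44).

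Ppp1r3c, known as PTG (protein targeting to glycogen), lies on chromosome 19 from 36731731 to 36736653. It was at 25.8, 17.1 and 10.5 FPKM in fed libraries 1, 2 and 3 and at 18.4, 26.7 and 39.8 FPKM in fasted libraries 1, 2 and 3. The groups overlapped between fed library 1 and fasted library 1. Its log2 fold change of 0.77 (95% interval -0.01 to 1.55) came with the lowest edgeR p of the members, 0.0534 unadjusted and 0.237 adjusted.

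Ppp1r3g, a further targeting subunit (chromosome 13, 35958839 to 35970388), was close to undetected, with 2, 1 and 4 counts in fed libraries 1, 2 and 3 and 1, 1 and 3 counts in fasted libraries 1, 2 and 3. It was the only member below the filter on low counts, and no fold is given. A difference among levels of Ppp1r3g this low was not detectable at this depth, where 3 counts correspond to 0.186 to 0.291 CPM.

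Stbd1 binds glycogen and the membrane-bound autophagy protein GABARAPL1 (chromosome 5, 92603041 to 92606579). It varied least. Fed libraries 1, 2 and 3 held 53.4, 44.5 and 34.2 FPKM and fasted libraries 1, 2 and 3 held 38.7, 42.8 and 43.6 FPKM. The log2 fold change was 0.02, with the narrowest interval of the 8 tested members (95% interval -0.34 to 0.38, edgeR adjusted p = 0.96), and it changed sign with library totals alone (-0.14), with upper-quartile scaling (-0.05) and on FPKM (-0.06).

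On the per-length FPKM scale, the mean over fed libraries put Pygl first at 98.3 ± 71.7 (SD, n = 3), before Ugp2 at 80.1 ± 54.7, Ppp1r3b at 50 ± 29.0, Stbd1 at 44.0 ± 9.62 and Gys2 at 27.2 ± 15.7. Gbe1 at 22.7 ± 9.53, Ppp1r3c at 17.8 ± 7.66, Phka2 at 3.54 ± 1.28 and Ppp1r3g at 0.0733 ± 0.0522 followed. From Pygl to Ppp1r3c the libraries of each neighbouring pair in that order overlapped, while Phka2 and Ppp1r3g each stood below the member before them in every library. In fasted libraries Ugp2 (72.7 ± 15.7 FPKM) came before Pygl (53.8 ± 6.22), then Stbd1 (41.7 ± 2.63), Gys2 (41.1 ± 7.21), Ppp1r3b (30.4 ± 9.63), Ppp1r3c (28.3 ± 10.8) and Gbe1 (15.0 ± 1.62). Phka2 (4.19 ± 0.464) and Ppp1r3g (0.0602 ± 0.0406) were again last. Neighbours in the fasted order overlapped except Pygl and Stbd1, Ppp1r3c and Gbe1, Gbe1 and Phka2, and Phka2 and Ppp1r3g.

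**Figure D2:**
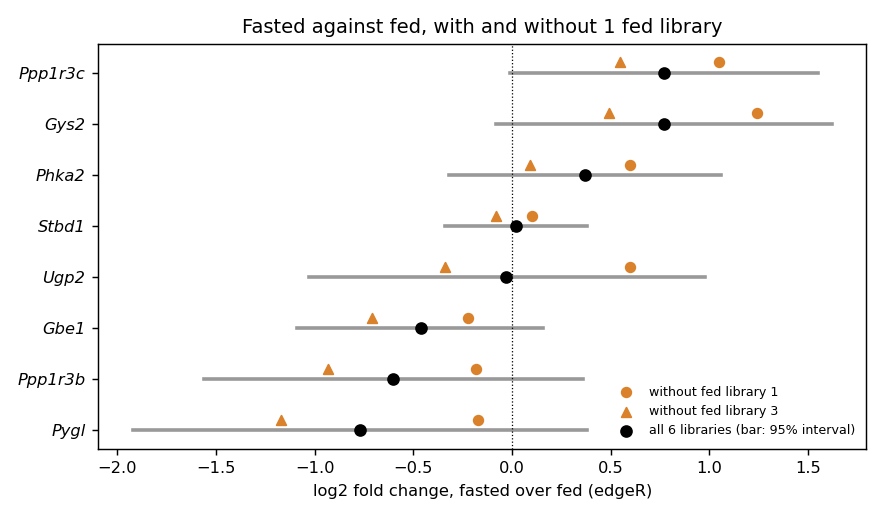
Log2 fold change of fasted over fed liver for the 8 tested genes (edgeR), with all 6 libraries (black, bar: 95% interval) and without fed library 1 (orange circle) or fed library 3 (orange triangle). All 8 intervals include 0, and each estimate is higher without fed library 1 than without fed library 3, as in Pygl at -0.17 and -1.17.

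Promoter sequences came from RefSeq's table for GRCm38.p6, which held 8 promoters of 7 members, each from 250 bases before to 50 after a start. Gys2 and Ppp1r3b had no entry. The promoters of Pygl, the member with the lowest fold change, and of Ppp1r3c, the member with the lowest p, are shown so that the letters searched in them can be seen. Capitals mark a match: in Ppp1r3c the E-box CACGTG, 104 bases before the start, and in Pygl the reverse complement CGTCA of TGACG, the short form of the cAMP response element, 44 bases before the start. The Ppp1r3c window is chr19:36736555-36736854 and the Pygl window chr12:70227634-70227933, both on the minus strand and written 5′ to 3′ along the gene. The windows of Pygl and Ppp1r3g and the Ugp2 window chr11:21370580-21370879 lie inside the gene spans given above. The other Ugp2 window, chr11:21371218-21371517, lies wholly outside the Ugp2 span. The RefSeq starts of these windows therefore differ from the GENCODE gene starts.
Ppp1r3c: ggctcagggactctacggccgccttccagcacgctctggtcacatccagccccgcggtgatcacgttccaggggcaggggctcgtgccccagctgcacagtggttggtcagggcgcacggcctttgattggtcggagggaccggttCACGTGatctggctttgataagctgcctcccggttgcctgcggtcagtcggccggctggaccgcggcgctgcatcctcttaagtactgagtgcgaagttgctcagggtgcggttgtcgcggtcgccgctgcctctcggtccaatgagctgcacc
Pygl: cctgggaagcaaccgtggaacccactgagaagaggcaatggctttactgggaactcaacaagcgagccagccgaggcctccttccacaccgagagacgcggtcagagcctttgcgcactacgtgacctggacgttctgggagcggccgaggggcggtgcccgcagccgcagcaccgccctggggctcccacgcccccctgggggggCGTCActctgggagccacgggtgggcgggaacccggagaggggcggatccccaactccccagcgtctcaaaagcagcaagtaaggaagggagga

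Both strands were searched. CACGTG occurred in 1 of the 8 member promoters and in 7.15% of all 32851 promoters in the table. TGACG was in 2, those of Pygl and Ppp1r3g, and in 20.8% of all. The full element TGACGTCA, which contains TGACG, and the FOXO letters GTAAACA were in 0 of the 8 and in 1.79% and 3.65% of all. A match is a description of the letters and not a binding site.

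The fed libraries ranked alike for nearly every member. In all 8 tested members fed library 1 had the highest and fed library 3 the lowest CPM of the fed libraries, an order found in 25% of tested genes. The median ratio of fed library 1 to fed library 3 in CPM was 2.6 over the 8 members and 1 over all tested genes. It was 4.94 for Pygl, 3.4 for Ugp2, 3.19 for Ppp1r3b, 2.81 for Gys2, 2.39 for Phka2, 2.17 for Gbe1 and 2.11 for Ppp1r3c, and 1.34 for Stbd1. Ppp1r3g, with at most 4 counts, was highest in fed library 3.

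Among the fed libraries the SD of log2 CPM had a median of 0.70 over the 8 members and 0.27 over all tested genes, and among the fasted libraries 0.20 and 0.21. The SD of Pygl was 1.17 in the fed and 0.08 in the fasted libraries, and 95.6% of tested genes had a smaller SD in the fed libraries. Stbd1 was again the exception, with a fed SD of 0.21. Relative to the fasted mean in CPM, fed library 1 held 2.89 times as much Pygl and 0.923 times as much Gys2. Fed library 3 held 0.586 times as much Pygl and 0.329 times as much Gys2.

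Other measures moved across the same libraries. Log2(CPM + 1) was averaged over 20 acute phase genes, most of which encode plasma proteins that the liver secretes in inflammation. The mean was 9.27 in fed library 1, 11.73 in fed library 2 and 12.63 in fed library 3, and the fasted libraries ran from 10.53 to 11.40. This acute phase mean was lowest where the members were highest among the fed libraries. A list of 5 hepatocyte markers without Alb summed to 12171, 12033 and 7752 FPKM in fed libraries 1, 2 and 3 and to 15555, 17378 and 21585 FPKM in fasted libraries 1, 2 and 3. Apoa1, Ttr and Cyp2e1 made up most of these sums, and the markers did not move alike. From fed library 1 to 3 Ttr, Cps1 and Cyp2e1 fell and Apoa1 was highest in fed library 2. Hnf4a went the other way, at 119, 127 and 132 FPKM in fed libraries 1, 2 and 3. Alb itself had a listed value of 0 in fed library 2, which can be a failed estimate, and of the 6 markers with Alb only Cyp2e1 passed edgeR's test (adjusted p = 0.0351). The part of these measures in the members' values was not tested, and in bulk tissue fewer cells of a type and less RNA per cell cannot be told apart.

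In summed FPKM, the macrophage and stellate cell lists were highest in fed library 1 and lowest in fed library 3 of the fed libraries. The bile duct and endothelial lists ran the other way, and genes within a list did not move alike. From fed library 1 to 3 the endothelial markers Lyve1 (4.34, 7.51 and 18.8 FPKM) and Pecam1 rose and Kdr (7.08, 6.55 and 3.87 FPKM) fell. Stab2 and Clec4g were highest in fed library 2. Of the stellate cell markers Rgs5 rose and Reln fell, and of the macrophage markers Clec4f fell and Marco was highest in fed library 2. In mean log2(CPM + 1) the macrophage list was at 5.34, 5.38 and 4.99 and the stellate cell list at 4.16, 4.10 and 4.24 in fed libraries 1, 2 and 3, so the order of these lists depended on the measure. Their part in the members' values was not tested. The bile duct list of 5 genes summed to 26.3, 95.3 and 352 FPKM in fed libraries 1, 2 and 3 and to 9.25 to 19.4 FPKM in the fasted libraries. Nearly all of it was Spp1. Without Spp1 it summed to 0.773, 2.47 and 9.33 FPKM in fed and 0.534 to 1.44 FPKM in fasted libraries. Most of the 9.33 FPKM in fed library 3 was Sox9, at 8.37 FPKM. Krt19 was highest in fed library 2, and Krt19 and Krt7 were listed at 0 in some libraries. Macrophage markers, 5 of 6 in the table, summed to 193, 167 and 127 FPKM in fed libraries 1, 2 and 3 and to 124 to 162 FPKM in the fasted libraries. The 5 endothelial markers ran from 85.6 to 102 and from 63.7 to 83.6 FPKM, and the 5 stellate cell markers from 34.3 to 41 and from 26.2 to 39. The 4 muscle markers summed to at most 1.45 FPKM, with Acta1 listed at 0 in all 6 libraries, and the 4 adipocyte markers to at most 3.38.

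**Figure D3:**
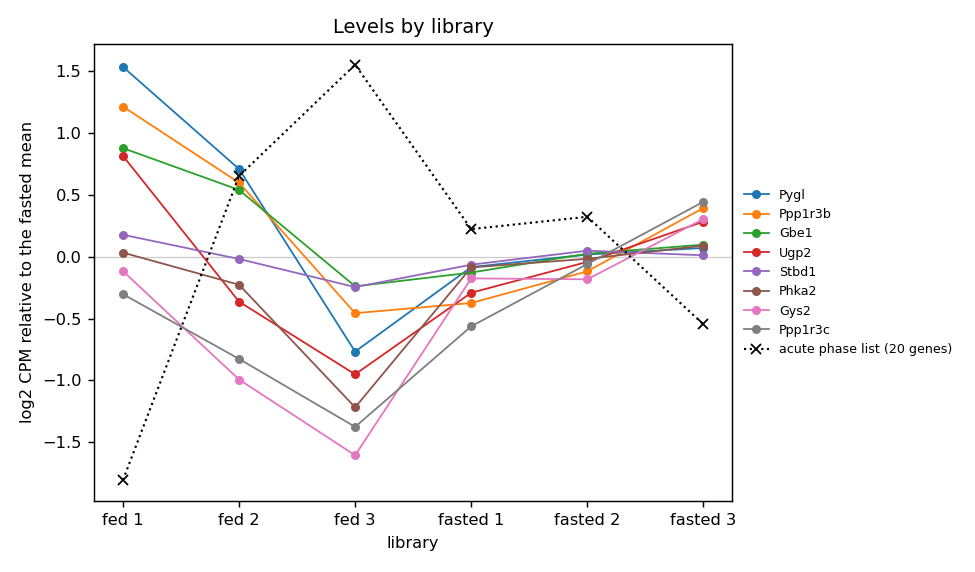
Log2 CPM of the 8 tested genes in each library, relative to the mean of the fasted libraries, with the mean of 20 acute phase genes (dotted, on log2(CPM + 1)); lines only follow a gene across libraries, which have no order. Members are highest in fed library 1 and lowest in fed library 3 among the fed libraries, where the acute phase mean is at 9.27 and 12.63 respectively.

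A ratio of 2 members within a library is free of the library's scaling. Of the 28 pairs of tested members, 14 had FPKM ratios that did not overlap between fed and fasted livers, against 26.3% of all pairs of tested genes. On CPM 14 pairs were apart as well, against 28.3%. Without fed library 1, 2 or 3 the pairs apart numbered 19, 14 and 19, against 40.3%, 32.2% and 40.4% of all pairs. Without fasted library 1, 2 or 3 they numbered 18, 15 and 15, against 35.9%, 34.5% and 34.6%. Pairs share genes and are not independent, and the ratios named here were chosen after their values were seen, so they carry no test. With 3 against 3 libraries an exact two-sided permutation test cannot give a p below 0.1.

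Gys2 relative to Pygl, synthase over phosphorylase, took the values 0.256, 0.263 and 0.443 across fed libraries 1 to 3 and 0.812, 0.661 and 0.818 across fasted libraries 1 to 3. Every fasted library was above every fed library, with means of 0.321 ± 0.106 and 0.764 ± 0.0894 (SD, n = 3 each), a 2.45-fold difference between geometric means. Leaving out any single library kept the log2 difference between 1.16 and 1.55, beside 1.29 with all. Gys2 relative to Gbe1 was 1.15 ± 0.219 in fed and 2.74 ± 0.386 in fasted livers. Pygl overlaps a gene on the opposite strand and Gbe1 shares its deposited locus with another gene, so both ratios are uncertain.

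Ppp1r3c relative to Ppp1r3b took the values 0.325, 0.347 and 0.493 across fed libraries 1 to 3 and 0.817, 0.968 and 0.966 across fasted libraries 1 to 3. The fasted values were again all higher, 2.39-fold between geometric means, and the log2 difference of 1.26 stayed between 1.14 and 1.44 when any single library was left out. The level of Ppp1r3b is uncertain because its deposited locus spans other genes, and so are this ratio and the shares below. Leaving out a library cannot address that. Of the FPKM summed over the 7 Ppp1r3 subunit genes, Ppp1r3b took 70.2% ± 5.43 in fed and 50.6% ± 1.8 in fasted livers (SD, n = 3 each). Ppp1r3c took 26.9% ± 4.05 and 46.3% ± 2.82. Ppp1r3e followed with 2.06% ± 0.727 and 2.47% ± 0.832, and Ppp1r3a, the subunit known from muscle, was listed at 0 in all 6 libraries.

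The 14 pairs were sorted by trios picked with these values known. The trios match the signs of the fold changes, so their counts carry no test. All 9 ratios of Gys2, Ppp1r3c or Phka2 over Pygl, Gbe1 or Ppp1r3b were higher in fasted livers without overlap. The counts of Pygl, Gbe1, Ppp1r3b and Phka2 are uncertain, because of an overlapping gene or a shared deposited locus, and so are these ratios. For Phka2 over Pygl the gap was narrow, from 0.0757 in fed library 3 to 0.076 in fasted library 2. Of the 6 ratios within these trios 0 were apart, and of all pairs of tested genes 26.3% were. The Pygl to Gbe1 ratio, for instance, was 3.89 ± 1.56 in fed and 3.58 ± 0.0948 in fasted livers. The remaining pairs apart were Gys2 over Ugp2 and over Stbd1, Ppp1r3c over Ugp2, Phka2 over Stbd1, and Ugp2 over Ppp1r3b.

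**Figure D4:**
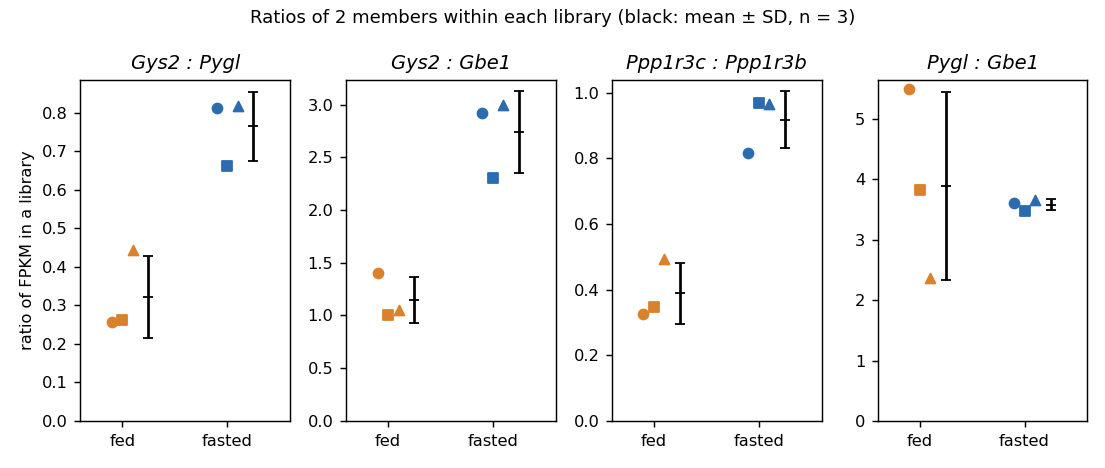
Ratio of the FPKM of 2 members within each fed (orange) and fasted (blue) library (circle, square and triangle: libraries 1, 2 and 3), with mean ± SD in black. Gys2 to Pygl runs from 0.256 to 0.443 in fed and from 0.661 to 0.818 in fasted livers, while Pygl to Gbe1 overlaps.

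**Figure D5:**
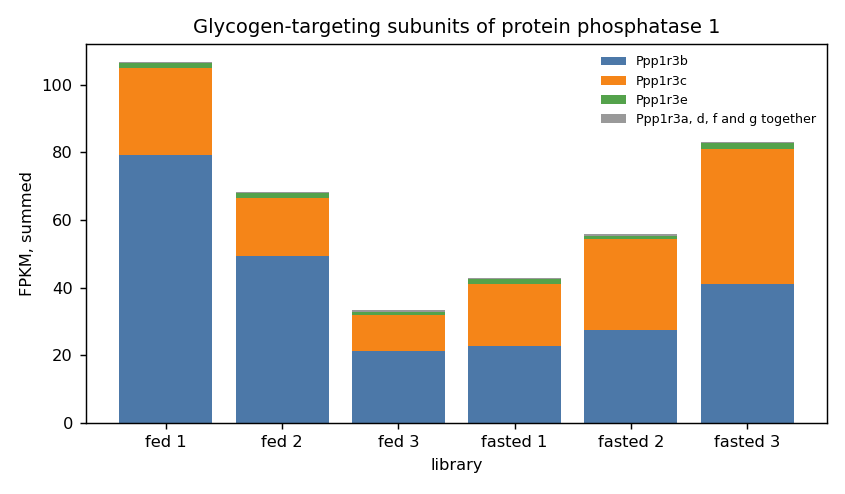
Summed FPKM of the 7 Ppp1r3 genes in each library, split by subunit. The total runs from 33.3 to 107 FPKM in the fed and from 42.9 to 83.1 FPKM in the fasted libraries, and Ppp1r3c takes a larger share in each fasted library (43% to 47.9%) than in any fed library (24.1% to 31.6%).

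Across the rest of the pathway, 2 of 35 tested genes passed in edgeR's quasi-likelihood test, 1 lower and 1 higher in fasted livers, out of 40 listed. Over all tested genes 2.52% passed, 1.11% lower and 1.41% higher. The median log2 fold change was 0.08.

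Slc37a4, the carrier that brings glucose 6-phosphate into the endoplasmic reticulum, was 2.42-fold higher in fasted livers, at 234 ± 31.4 CPM beside 96.5 ± 10.3 CPM (SD, n = 3 each), with an edgeR adjusted p of 0.019. Its call was lost when fed library 2 or a single fasted library was left out, with edgeR adjusted p from 0.0669 to 0.111. It was also lost with library totals alone (0.0588) and with the replicate block (0.1). G6pc, the glucose 6-phosphatase that acts with it, had 203, 234 and 52.9 CPM across fed libraries 1 to 3, against 303, 412 and 491 CPM across fasted libraries 1 to 3, and did not pass (adjusted p = 0.196).

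In the pathway's other groups none of the tested genes passed, 0 of 6 for the phosphatase and 0 of 9 for the kinases and quality control of glycogen, with 0 and 1 at an unadjusted p under 0.05. The shares over all tested genes were 2.52% and 21.8%. DESeq2 called 5 of the other pathway genes, Gaa and Gabarapl1 among them, and 8.40% of all genes it gave an adjusted p. Ppp1ca and Ppp1cb, catalytic subunits of protein phosphatase 1, had log2 fold changes of 0.12 and 0.24 (edgeR adjusted p = 0.629 and 0.425). Gabarapl1, the partner of Stbd1, was at 139 ± 76.3 CPM in fed and 309 ± 60.8 CPM in fasted livers (adjusted p = 0.158). Prkar1a, a regulatory subunit of the cAMP-dependent kinase, had a log2 fold change of -0.02 (adjusted p = 0.949). Pgm2, a phosphoglucomutase, had groups that did not overlap on CPM, as in 29.0% of tested genes, but overlapped on FPKM, with fed library 1 at 67.1 and fasted library 2 at 65.6 FPKM, and its edgeR adjusted p was 0.152.

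Among the genes whose log2 CPM over the 6 libraries was most like that of Ppp1r3c, the member with the lowest p, were Ppa2 and Znrf3, with Pearson's r of 0.991 and 0.990 and a Spearman's rho of 1 each. They were ranked among 7662 genes with a mean count of at least 100, over only 6 libraries, which come from both groups and differ in depth.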

How the data were processed

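The table's FPKM and estimated counts per gene and library are the authors' values, per the file headers. Per the submitters' processing notes the tools include CASAVA 1.8 and TopHat2, and the build hg19, a human build, while the table carries mouse Ensembl identifiers. The sources used here do not give the counting program or strand setting; the kit keeps strand, per the labels. Of the identifiers, 21839 are in GENCODE M21 (GRCm38), where 99.9% overlap the deposited locus. Pygl, Ugp2, Ppp1r3b, Ppp1r3g and Phka2 overlap a gene on the opposite strand there, which leaves their counts uncertain. The deposited locus of Ppp1r3b is 1000621 bases long and is shared with 5 other genes. That of Gbe1 is shared with 1 other gene, 4930423O20Rik, so the counts of Gbe1 are uncertain too. Ugp2 also overlaps Mir1933 on its own strand. 1 line of the table was emptied for this work.

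The deposited estimated counts are scaled: 90.5% to 91.1% of values above 0 were whole multiples, within 0.02, of 1 step per library. They were divided by that step and rounded, and lines sharing a symbol were summed. Totals were 12289647 to 14771817 in fed and 11158001 to 11639386 in fasted libraries. Counting error is the only error that these depths describe.

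Fasted and fed libraries were compared with edgeR 4.0.16 in R 4.3.3 (TMM, filterByExpr with a minimum count of 10, quasi-likelihood, two-sided, Benjamini-Hochberg over 11633 genes, no covariate). The common biological coefficient of variation was 27.9%. Intervals are the estimate ± the t quantile times the standard error. FPKM were also tested with limma 3.58.1 on log2(FPKM + 1), and counts with DESeq2 1.42.0. Counts were simulated for 11633 genes in this comparison, and a small part of the genes was changed. Of the changed genes edgeR recovered 1.49% at a 1.5-fold change, 11.9% at 2-fold and 75.8% at 4-fold. Of its 66 calls 7 were false. The simulated counts were drawn separately for each library, without the order that the members showed among the fed libraries.

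The members, lists and tests were chosen with earlier results of these data known. All members are named. Of the other pathway genes those with an adjusted p under 0.05 and the 2 most abundant of each group are named. Some genes that this rule names are not reported here. Gaa is named because another tool called it.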

Additional observations from a re-analysis of the deposited data

How the results depend on the processing

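With 16 alternatives, including each library left out in turn, no direction changed for Gys2, Ppp1r3c, Phka2, Gbe1, Ppp1r3b or Pygl, and none of the 8 tested members passed in 14 of the 16. Without fed library 1 Gys2 passed, in a fit that called 4.21% of the genes it tested. Without fed library 3 Gbe1 and Pygl passed, in a fit that called 6.34%. The members called thus ranged from 0 to 2 over the libraries left out. Ugp2 and Stbd1, with estimates of -0.03 and 0.02, changed sign. Ugp2 was at 0.05 and 0.06 on FPKM with a pseudocount of 1 and 0.1, at 0.16 with the replicate block, and from -0.34 to 0.60 with 1 library left out. Stbd1 was at -0.05 with upper-quartile scaling, -0.14 with library totals alone, -0.06 on FPKM with either pseudocount, and from -0.08 to 0.10 with 1 library left out. Library totals alone moved the median of all genes from -0.02 to -0.16. The genes called, 293 in the main test (164 higher and 129 lower), were 1056 with DESeq2, 190 with library totals alone (57 higher and 133 lower), 186 (82 higher and 104 lower) and 159 (70 higher and 89 lower) on FPKM with a pseudocount of 1 and 0.1, 29 with the replicate block, and 3 to 754 with 1 library left out. Of the other pathway genes, 2 in the main test, 5 were called with DESeq2, 1 with library totals alone, 1 with the replicate block, and 0 to 3 with 1 library left out. The cause was not tested. The replicate number is not a pairing given in the labels: same-numbered libraries deviated with correlations of -0.074, 0.183 and -0.126, and no member was called with the block. The pairs of members with separate ratios numbered 14 to 19 with 1 library left out, when 32.2% to 40.4% of all pairs were separate. The ratio settings were chosen after seeing the data.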
